A study of Mus musculus with 7 samples.

Results

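A set of 9 genes that mark or direct the making of new olfactory neurons was followed in the nasal tissue of mice that inhaled diesel exhaust particles (DEPs). They were *Neurog1*, *Neurod1*, *Gap43*, *Gng8*, *Lhx2*, *Emx2*, *Ebf1*, *Dpysl5* and *Eya1*, which is 9 of the 32095 names with a probe on the arrays. They were chosen by name for their place in this lineage, with earlier results of these data known. Each was found through the transcript that its probe is annotated to, which gave 10 probes. A probe was tested when 1 of its channels, or both, stood well above background on 3 or more of the 7 arrays. This held for 8 of the 9 genes, and *Neurod1* was not tested.

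The mice were female BALB/c mice, 6 weeks old in the labels of every sample, and the labels count 32 of them. Exposed mice inhaled 100 µg/m3 DEPs suspended in saline for 1 hour per day on 5 days per week over 4 or 8 weeks, and control mice received nebulized saline according to the methods, which describe the exposure of 4 weeks. RNA came from the nasal septum and turbinates, and every array carried DEP RNA in the Cy5 channel beside control RNA in the Cy3 channel, with 4 arrays at 4 weeks on 1 slide and 3 arrays at 8 weeks on another. No dye swap was made, so dye and treatment cannot be told apart, and neither can slide and exposure time. How many mice contributed to an array, and whether control RNA was pooled, is not given in the sources used here.

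The olfactory epithelium renews its sensory neurons throughout life. Globose basal cells pass through a stage that expresses *Neurog1* and then *Neurod1*, their daughters become immature neurons that express *Gap43* and *Gng8* and extend axons, and mature neurons replace these genes with *Omp* and the signalling chain of odorant receptors. *Lhx2*, *Emx2* and the Ebf factors are transcription factors that act in this lineage and on genes of the mature neuron.

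Promoter sequences are shown for the 4 members that passed a test and have an entry in the RefSeq promoter table of GRCm38.p6, which holds 7 of the 9 members. Each run lies directly before the annotated start of its gene, at chr5:30711314-30711563 for *Dpysl5*, chr7:16891536-16891736 for *Gng8*, chr2:38339031-38339270 for *Lhx2* and chr11:44617850-44618099 for *Ebf1*, all on the plus strand and 5′ to 3′. Capitals mark matches on either strand to CANNTG, the E-box bound by basic helix-loop-helix proteins such as those of *Neurog1* and *Neurod1*, and TAATTA, a core bound by homeodomain proteins.
Dpysl5: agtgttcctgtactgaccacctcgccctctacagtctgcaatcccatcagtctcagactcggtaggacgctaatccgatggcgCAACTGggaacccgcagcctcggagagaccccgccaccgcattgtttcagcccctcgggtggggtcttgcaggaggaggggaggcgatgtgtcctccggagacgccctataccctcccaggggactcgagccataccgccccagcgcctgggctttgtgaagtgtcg
Gng8: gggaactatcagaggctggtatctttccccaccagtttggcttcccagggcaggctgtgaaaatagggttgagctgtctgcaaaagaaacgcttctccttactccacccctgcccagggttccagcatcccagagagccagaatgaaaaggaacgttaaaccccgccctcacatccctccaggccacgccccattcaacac
Lhx2: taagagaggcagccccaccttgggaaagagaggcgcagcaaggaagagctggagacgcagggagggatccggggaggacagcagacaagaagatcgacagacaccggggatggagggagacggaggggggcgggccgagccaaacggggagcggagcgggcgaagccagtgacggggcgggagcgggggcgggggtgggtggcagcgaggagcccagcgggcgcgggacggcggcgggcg
Ebf1: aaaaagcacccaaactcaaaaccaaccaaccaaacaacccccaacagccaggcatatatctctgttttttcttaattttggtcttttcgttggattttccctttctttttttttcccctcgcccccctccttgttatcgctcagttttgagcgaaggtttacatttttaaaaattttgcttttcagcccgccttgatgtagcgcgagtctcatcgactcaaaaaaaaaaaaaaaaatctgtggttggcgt
The *Dpysl5* window held an E-box, CAACTG, which starts 167 bases before the gene. The E-box occurred in 68.3% and TAATTA in 5.61% of 19827 promoter windows of 250 bases. Neither motif was found in the *Gng8*, *Lhx2* and *Ebf1* windows. The *Gng8* window has 201 bases, a length at which 59.6% and 4.32% of 21951 windows held the motifs, and the *Lhx2* window has 240 bases (66.7% and 5.31% of 20271 windows). Among the 3 other members with an entry, *Neurog1* held 1 TAATTA, *Neurod1* held 1 E-box and *Emx2* held neither motif. These matches describe the letters of the windows only.

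After 4 weeks, 5 members were up-regulated in DEP tissue and none was down-regulated. *Dpysl5* and *Eya1* were 2.10-fold and 2.23-fold higher, while *Gng8*, *Lhx2* and *Ebf1* were 1.43-fold, 1.40-fold and 1.33-fold higher. After 8 weeks *Dpysl5* and *Eya1* were again up-regulated, by 2.27-fold and 2.40-fold, and the other members did not pass the test. A member was called when its adjusted p by limma was at most 0.05 over all 25162 probes tested. Of all these probes, 37.0% were called at 4 weeks (20.8% higher) and 36.1% at 8 weeks (18.8% higher), and the members' counts are to be read against these shares. In bulk tissue, a change in the number of cells of a type and a change in RNA per cell cannot be told apart.

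**Figure D1:**
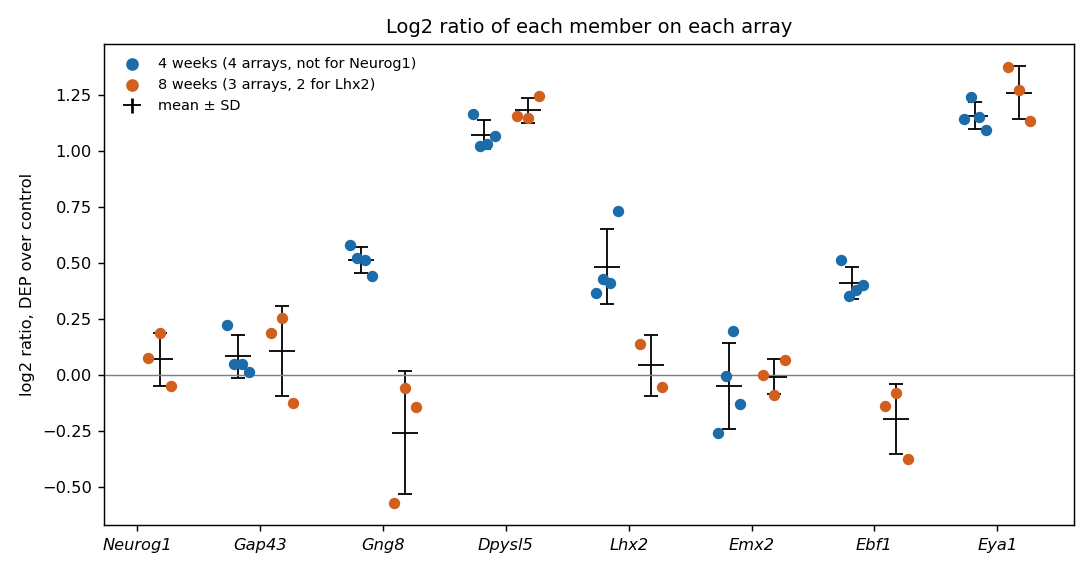
Log2 ratio of DEP over control (vertical axis) of the 8 tested members on each array, in blue for the 4 arrays of 4 weeks and in orange for the 3 arrays of 8 weeks, with the mean and SD in black. *Dpysl5* and *Eya1* lie between 1.02 and 1.38 on every array, *Gng8* and *Ebf1* are above 0 on the arrays of 4 weeks and below 0 on those of 8 weeks, and *Neurog1* is not drawn at 4 weeks, where it was below background.

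The transcription factors of the progenitor stage gave little signal. *Neurod1* was measured by 2 probes, and neither was well above background in any channel of any array, with median signals between 0.955 and 1.28 times the local background in the DEP channel. *Neurog1*, which commits globose basal cells to a neuronal fate, was not well above background in either channel of the 4-week arrays, so no ratio is given for 4 weeks. It passed the filter through the 8-week arrays, where it was well above background on 3 of 3 arrays in the DEP channel and on 2 in the control channel. Its log2 ratios there were 0.08, 0.19 and -0.05, which lie on both sides of 0. Their mean of 0.07 ± 0.12 (SD, n = 3 arrays) did not pass the test by limma (adjusted p = 0.48), and its 95% interval ran from -0.10 to 0.24. With the processed signals of the scanner software it was 0.35 (adjusted p = 0.10 by limma), outside that interval.

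The 3 genes of the immature neuron differed from each other. *Gap43*, a growth cone protein and a standard marker of immature olfactory neurons, had log2 ratios of 0.23, 0.05, 0.05 and 0.01 on the 4-week arrays and of 0.19, 0.25 and -0.12 on the 8-week arrays. All 4-week values were above 0 but 3 of them were close to it, and replicate 3 of 8 weeks lay below 0. The means were 0.09 ± 0.10 (SD, n = 4 arrays) at 4 weeks and 0.11 ± 0.20 (SD, n = 3) at 8 weeks, and neither passed the test (adjusted p = 0.37 and 0.35 by limma). The 95% intervals were -0.08 to 0.25 and -0.08 to 0.30, so a 1.43-fold rise such as that of *Gng8* at 4 weeks lay outside both. With 1 array of 8 weeks left out, the 8-week mean ran from 0.03 to 0.22. The sign of *Gap43* depended on the scaling, with -0.01 at 4 weeks and -0.17 at 8 weeks when arrays were centred on their median in place of loess.

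*Gng8*, a G protein gamma subunit of immature olfactory and vomeronasal neurons, had log2 ratios of 0.58, 0.52, 0.51 and 0.44 on the 4-week arrays. The 4 values were close together. All were above 0, as was the case for 28.9% of all tested probes. The mean of *Gng8*, 0.52 ± 0.06 (SD, n = 4 arrays), passed the test (adjusted p = 0.0025 by limma). On the 8-week arrays the log2 ratios were -0.57, -0.06 and -0.14. All 3 were below 0, as for 33.2% of all tested probes, replicate 1 by far the most, and none reached the lowest 4-week value. Their mean of -0.26 ± 0.28 (SD, n = 3) did not pass the test (adjusted p = 0.070 by limma). It did with median centring, at -0.53 (adjusted p = 0.0040 by limma), and when only probes measured in both channels of all arrays were tested (adjusted p = 0.047 by limma). Without replicate 1 of 8 weeks it was -0.10 (adjusted p = 0.30 by limma). The log2 ratio at 8 weeks minus that at 4 weeks was -0.77 (standard error 0.13, adjusted p = 0.0036 by limma).

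*Dpysl5*, a member of the collapsin response mediator family that acts on the cytoskeleton of growing axons, had log2 ratios of 1.17, 1.02, 1.03 and 1.07 at 4 weeks and of 1.16, 1.15 and 1.25 at 8 weeks. On every array its RNA was at least 2-fold higher in DEP tissue, and both sets of arrays overlapped. The means were 1.07 ± 0.07 (SD, n = 4 arrays; adjusted p = 6.3e-06 by limma) and 1.18 ± 0.05 (SD, n = 3; adjusted p = 4.6e-06). Of its family, 3 other genes were on the immature neuron list. *Crmp1* was up-regulated at 4 weeks (log2 ratio 0.43, adjusted p = 0.0014 by limma) and down-regulated at 8 weeks (-0.41, adjusted p = 0.0036). *Dpysl2* had log2 ratios of 0.22 (adjusted p = 0.068 by limma) and -0.34 (adjusted p = 0.027), and *Dpysl3* of 0.13 and 0.15, which did not pass the test. These family members were named after their values were seen.

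Of the transcription factors, *Lhx2*, a LIM homeodomain protein needed for the differentiation of olfactory neurons, had log2 ratios of 0.37, 0.43, 0.41 and 0.73 on the 4-week arrays. Replicate 4 stood above the others, and all 4 were above 0. Their mean of 0.48 ± 0.17 (SD, n = 4 arrays) passed the test (adjusted p = 0.0032 by limma). At 8 weeks the spot of replicate 1 was marked as not uniform by the scanner software and left out, and the remaining log2 ratios were 0.14 and -0.05. These lie on both sides of 0 and below every 4-week value. Their mean of 0.04 ± 0.14 (SD, n = 2) did not pass the test (adjusted p = 0.79 by limma), and with median centring it was -0.31 (adjusted p = 0.050 by limma).

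*Ebf1*, the factor that binds the promoters of many olfactory neuron genes and is also needed for the development of B cells, had log2 ratios of 0.51, 0.35, 0.38 and 0.40 at 4 weeks. All were above 0, and their mean was 0.41 ± 0.07 (SD, n = 4 arrays; adjusted p = 0.0016 by limma). At 8 weeks the log2 ratios were -0.14, -0.08 and -0.37, all below 0 and below every 4-week value. Their mean of -0.20 ± 0.16 (SD, n = 3) did not pass the test (adjusted p = 0.060 by limma). It did with median centring (-0.48, adjusted p = 0.0022 by limma), with the processed signals of the scanner software (-0.37, adjusted p = 0.020), and among probes measured in both channels of all arrays (adjusted p = 0.043). Without replicate 3 of 8 weeks it was -0.11 (adjusted p = 0.27 by limma). The other Ebf genes, named after their values were seen except *Ebf4*, were also higher at 4 weeks than at 8 weeks. *Ebf4* was at 1.12 and -0.07, *Ebf3* at 0.47 and -0.45 and *Ebf2* at 0.26 and -0.81 (difference adjusted p = 0.00048, 0.00053 and 0.0014 by limma).

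Because *Ebf1* is also a gene of B cells, B cell markers are given beside it. Of 6 genes on the B cell list 5 were tested, and *Cd79a* was below the filter. At 4 weeks 3 were down-regulated and none up-regulated (median log2 ratio -0.24), and at 8 weeks 4 were up-regulated and none down-regulated (median 0.43). Of all tested probes, 16.2% were lower at 4 weeks and 18.8% higher at 8 weeks. The summed intensity of the 5 tested genes was 548 to 587 in the DEP channel against 627 to 728 in the control channel at 4 weeks, and 849 to 932 against 587 to 613 at 8 weeks. These sums include the offset of 50 that the background correction adds to each spot. The signal of the list was thus low, and the size of its ratios is uncertain. The medians were -0.57 and 1.18 with the processed signals, where 1 gene was up-regulated at 4 weeks. The part of B cells in the *Ebf1* values was not tested.

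*Emx2*, a homeodomain protein that acts on odorant receptor genes, was dim. It was well above background in the DEP channel of all arrays, but in the control channel of only 2 of the 4 arrays of 4 weeks. Its log2 ratios were -0.26, 0.00, 0.20 and -0.13 at 4 weeks and 0.00, -0.09 and 0.07 at 8 weeks, on both sides of 0 at each time. The means of -0.05 ± 0.19 (SD, n = 4 arrays) and -0.01 ± 0.08 (SD, n = 3) did not pass the test (adjusted p = 0.64 and 0.97 by limma). The 95% intervals were -0.22 to 0.12 and -0.21 to 0.19. With the processed signals the 8-week mean was -0.40 (adjusted p = 0.18 by limma), outside the latter interval.

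*Eya1*, a phosphatase and transcriptional coactivator of sensory placodes and muscle, had log2 ratios of 1.15, 1.24, 1.15 and 1.10 at 4 weeks and of 1.38, 1.27 and 1.14 at 8 weeks. It was more than 2-fold higher in DEP tissue on every array, and the values at both times overlapped. The means were 1.16 ± 0.06 (SD, n = 4 arrays; adjusted p = 7.4e-06 by limma) and 1.26 ± 0.12 (SD, n = 3; adjusted p = 6.1e-06). The other Eya genes, named after their values were seen, were *Eya2* and *Eya3*, which did not pass the test at either time, and *Eya4*, which rose at 4 weeks (0.25, adjusted p = 0.011 by limma) and fell at 8 weeks (-0.22, adjusted p = 0.031).

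Of 6 skeletal muscle genes, 1 was up-regulated and 2 were down-regulated at 4 weeks, and 1 was up-regulated and 4 were down-regulated at 8 weeks. Their summed intensity was 110113 to 147604 in the DEP and 119670 to 127740 in the control channel at 4 weeks, and 65089 to 70995 against 86425 to 89773 at 8 weeks. Over all tested probes, 20.8% were called higher and 16.2% lower at 4 weeks, and 18.8% and 17.4% at 8 weeks. The part of muscle tissue in the *Eya1* values was not tested.

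*Dpysl5* and *Eya1* are both on the list of genes that the study selected as up-regulated on these 4-week arrays, so their rise at 4 weeks is not independent evidence. The 8-week arrays are other samples, but DEP RNA was in the Cy5 channel on them as well. The members were also chosen with earlier results of these data known, so the 8-week rise is not fully independent either. A log2 ratio of at least 1 on each of the 7 arrays, those of 4 weeks included, was found for *Dpysl5* and *Eya1*, and for 0.262% of all tested probes.

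**Figure D2:**
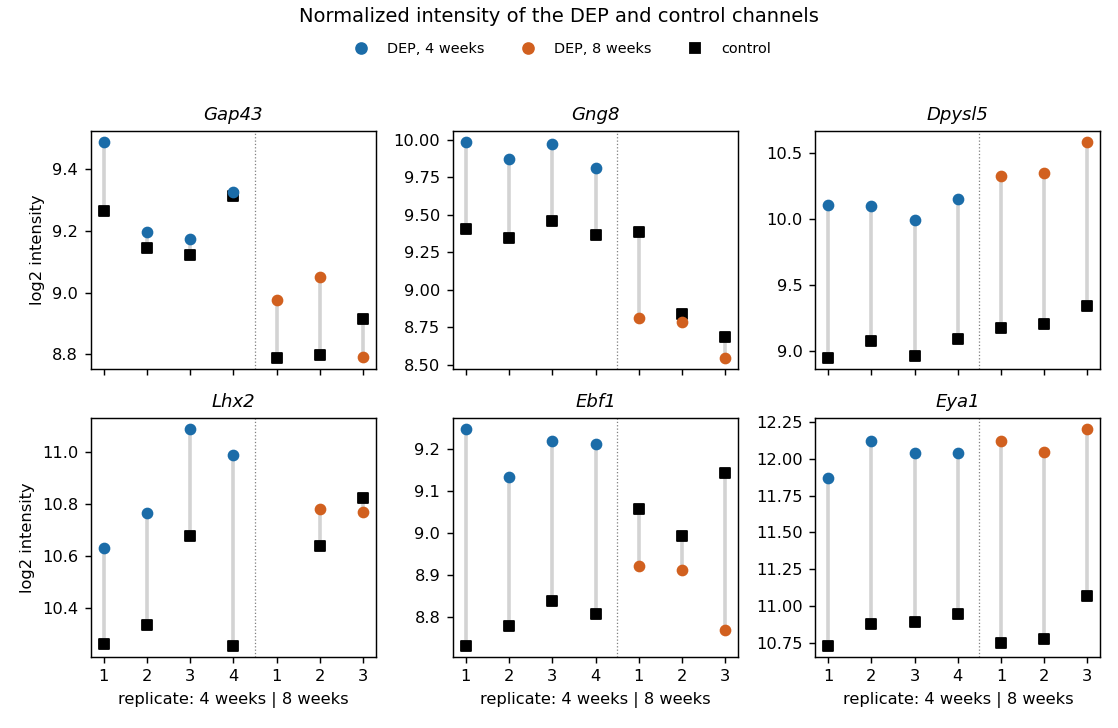
Normalized log2 intensity (vertical axis, one scale per gene) of the DEP channel (circles) and the control channel (squares) on each array of 4 weeks and 8 weeks (horizontal axis, replicate number), with a line joining both channels of an array. For *Dpysl5* and *Eya1* the circle is above the square on all 7 arrays, and for *Gng8* and *Ebf1* it is above on the 4 arrays of 4 weeks and below on the 3 of 8 weeks.

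The plot of both channels shows the levels behind these ratios. For *Gng8* the log2 intensity at 4 weeks was 9.91 ± 0.08 in the DEP and 9.39 ± 0.05 in the control channel (SD, n = 4 arrays), and at 8 weeks 8.71 ± 0.15 and 8.97 ± 0.37 (SD, n = 3). For *Ebf1* it was 9.20 ± 0.05 and 8.79 ± 0.05 at 4 weeks and 8.87 ± 0.09 and 9.06 ± 0.08 at 8 weeks. For *Dpysl5* it was 10.09 ± 0.07 and 9.02 ± 0.08 at 4 weeks and 10.42 ± 0.15 and 9.24 ± 0.09 at 8 weeks. The channels of *Ebf1* and *Dpysl5* did not overlap at either time, and those of *Gng8* did at 8 weeks only. For these levels, and for the sums over lists, the mean log2 intensity of both channels was quantile normalized between arrays, which leaves the ratios as they are. Intensities differ between probes for technical reasons, so no probe is set against another.

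The difference between the exposure times was tested directly. It passed the test for *Gng8*, *Ebf1* and *Lhx2*, all with a lower log2 ratio at 8 weeks, against 30.0% of all tested probes (16.1% lower). The differences were -0.77 for *Gng8*, -0.61 for *Ebf1* (standard error 0.091, adjusted p = 0.0025 by limma) and -0.44 for *Lhx2* (standard error 0.13, adjusted p = 0.042). Every 8-week array lay below every 4-week array for these 3 genes, as it did for 21.3% of all tested probes, with only 2 arrays of 8 weeks for *Lhx2*. Up-regulation at 4 weeks together with a lower ratio at 8 weeks was found for 8.92% of all tested probes. The call for *Lhx2* was lost without any of replicates 2, 3 and 4 of 4 weeks or 2 and 3 of 8 weeks (adjusted p = 0.051 to 0.20 by limma), and with the replicate number as a block (-0.37, adjusted p = 0.13). It was also lost with the background fitted on all spots (adjusted p = 0.084 by limma), with a normexp offset of 10 (adjusted p = 0.064), without the filter on dim probes (adjusted p = 0.074) and with the methods' test.

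For *Dpysl5* the difference was 0.11 with a 95% interval of -0.05 to 0.27 (adjusted p = 0.28 by limma), and for *Eya1* it was 0.10 with an interval of -0.08 to 0.29 (adjusted p = 0.37). Both signs turned with median centring, to -0.11 and -0.09. For *Gap43* the difference was 0.02 with an interval of -0.23 to 0.27 (adjusted p = 0.89), and for *Emx2* it was 0.04 with an interval of -0.22 to 0.31 (adjusted p = 0.80). The intervals of these 4 genes did not reach the difference seen for *Gng8* or that for *Ebf1*, but with the processed signals the difference of *Emx2* was -0.46 (adjusted p = 0.25 by limma), outside its interval. *Dpysl5* and *Eya1* were up-regulated at both times, as were 7.29% of all tested probes.

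**Figure D3:**
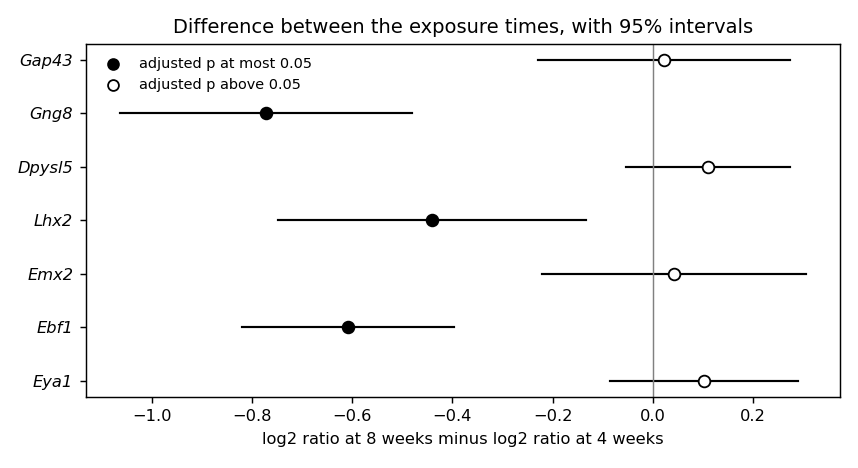
Difference of the log2 ratio of DEP over control between 8 weeks and 4 weeks (horizontal axis) for the 7 members measured at both times, with 95% intervals as lines and filled circles where the adjusted p was at most 0.05. *Gng8*, *Lhx2* and *Ebf1* lie at -0.77, -0.44 and -0.61, and the other 4 between 0.02 and 0.11.

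The scaling of the arrays moved the members by different amounts. Centring each array on its median moved the median of all tested probes to -0.04 at 4 weeks and -0.11 at 8 weeks, and split the called probes into 3778 higher and 5202 lower at 4 weeks and 2808 higher and 8283 lower at 8 weeks. With loess they were 5234 higher and 4088 lower at 4 weeks and 4727 higher and 4369 lower at 8 weeks. With median centring the 5 members called at 4 weeks stayed higher, at log2 ratios between 0.32 for *Ebf1* and 1.05 for *Eya1*. At 8 weeks *Dpysl5* and *Eya1* were then at 0.86 and 0.96 and stayed called. With the processed signals of the scanner software, *Dpysl5* was at 1.24 and 1.19 and *Eya1* at 1.24 and 1.35.

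**Figure D4:**
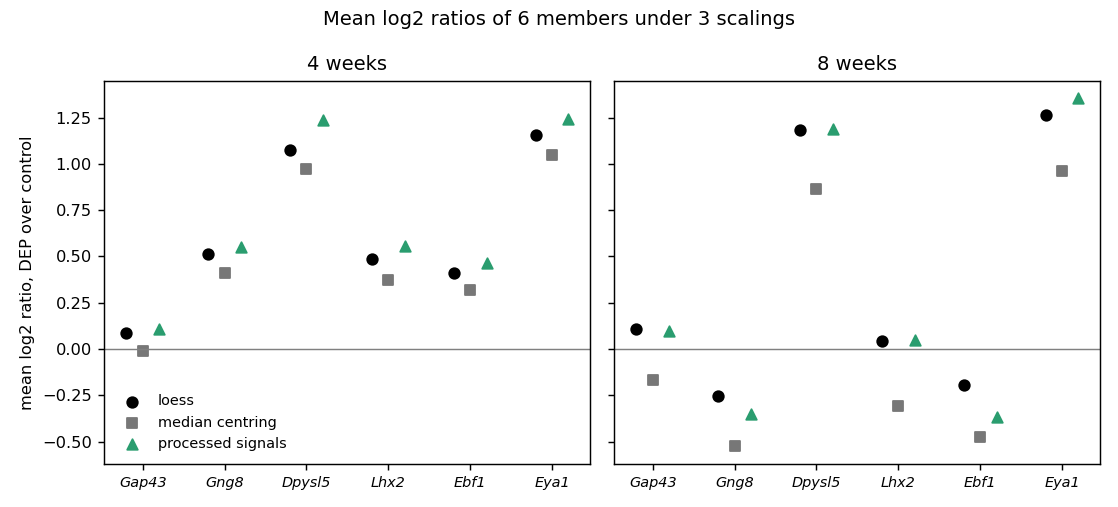
Mean log2 ratio of DEP over control (vertical axis) of 6 members at 4 weeks (left) and 8 weeks (right) with loess normalization (circles), with median centring (squares) and with the processed signals of the scanner software (triangles). The order of the members is nearly the same in each scaling, and at 8 weeks median centring places *Gap43* and *Lhx2* below 0, at -0.17 and -0.31.

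Other genes of the lineage were taken as lists. Markers of the labelled tissue were measured, with all 19 mature olfactory neuron genes tested, *Omp* among them, as well as 8 of 9 sustentacular cell genes (1 had no probe) and all 7 genes of the respiratory epithelium. Of the olfactory bulb list, *Slc17a7* and *Tbr1* were below the filter and 5 of 7 genes were tested. The median log2 ratio of all tested probes was -0.0023 at 4 weeks and -4e-04 at 8 weeks. At 4 weeks 20.8% of these probes were called higher and 16.2% lower, and at 8 weeks 18.8% higher and 17.4% lower. For the difference between the times 13.9% were higher and 16.1% lower. The counts of each list are to be read against these shares.

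All 16 other genes of the immature neuron list were tested. At 4 weeks 7 were up-regulated and 1 was down-regulated, with a median log2 ratio of 0.19. The highest were *Map1b*, a microtubule protein of growing axons, at 1.03, the adhesion molecule *Ncam1* at 0.59 and the transcription factor *Atf5* at 0.52, and the kinase-like *Trib3* fell by 0.19. At 8 weeks 6 were down-regulated and 2 were up-regulated, *Stmn1* (0.19) and *Elavl4* (0.48), both named after their values were seen, and the median was -0.25. The processed signals gave 11 up-regulated genes at 4 weeks, and median centring gave 10 down-regulated genes at 8 weeks. *Elavl4*, an RNA-binding protein of neurons, was also at 0.47 at 4 weeks (adjusted p = 0.00028 by limma). The difference between the times was lower for 8 genes and higher for none.

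Of 17 progenitor genes, 3 were up-regulated and 2 were down-regulated at 4 weeks, with a median of 0.02, and 5 and 4 at 8 weeks, with a median of 0.06. The shares called over all tested probes were 37.0% at 4 weeks and 36.1% at 8 weeks. Both medians of the list turned negative with median centring, to -0.04 and -0.06, while the processed signals gave 6 up-regulated genes at 4 weeks and a median of 0.23. *Hes6* (0.25) and *Neurod2* (0.24) were among those that rose at 4 weeks, and the Notch ligand *Dll1* (-0.32) and the Notch target *Hes1* (-0.22) fell. With median centring *Hes6* was at 0.15 and did not pass the test (adjusted p = 0.16 by limma). With the processed signals *Neurod2* was at 0.63.

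Among 21 other transcription regulators of the olfactory neuron, 20 were tested and *Emx1* was below the filter. At 4 weeks 10 were up-regulated and none was down-regulated, with a median of 0.22 and with *Ebf4*, *Nfic* (0.70) and *Nfib* (0.62) highest. *Ldb1*, the cofactor of *Lhx2*, was at 0.32 at 4 weeks (adjusted p = 0.0042 by limma) and 0.12 at 8 weeks (adjusted p = 0.19), and was named after its values were seen. At 8 weeks 5 were up-regulated and 4 were down-regulated, beside 18.8% and 17.4% of all tested probes, and the median of the list was 0.09. With median centring none was up-regulated and 8 were down-regulated, and the median was -0.16. The difference was lower at 8 weeks for 9 genes and higher for 2.

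**Figure D5:**
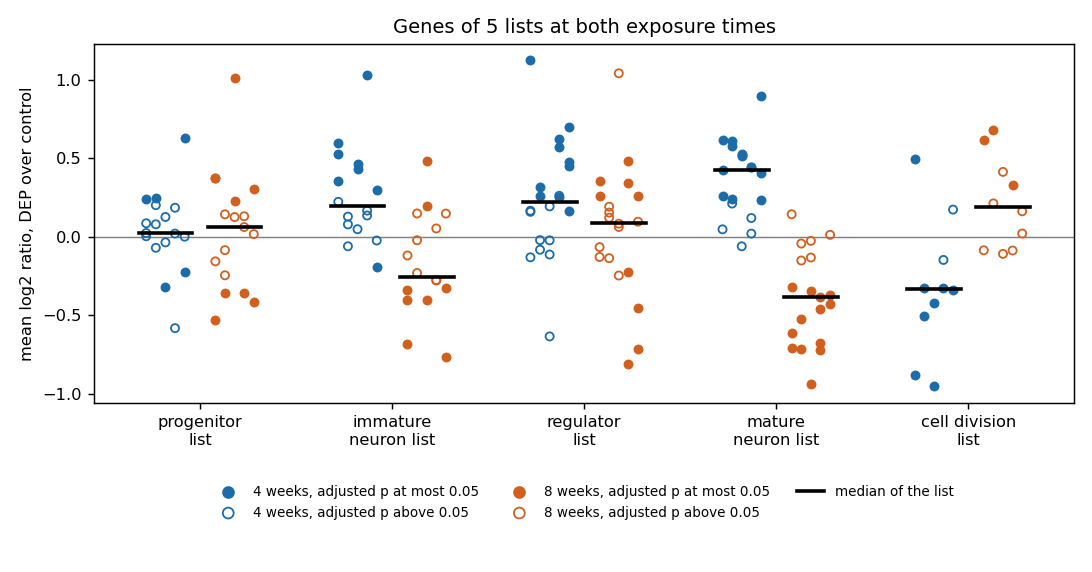
Mean log2 ratio of DEP over control (vertical axis) of the tested genes of 5 lists at 4 weeks (blue) and 8 weeks (orange), filled where the adjusted p was at most 0.05, with the median of each list as a black bar. The medians of the mature neuron list lie at 0.43 and -0.38, those of the immature neuron list at 0.19 and -0.25 and those of the cell division list at -0.33 and 0.19.

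Lists of 2 other cell types of the olfactory epithelium are given beside *Gng8*, *Lhx2* and *Ebf1*, whose ratios were lower at 8 weeks than at 4 weeks. Of 19 mature olfactory neuron genes, 14 were up-regulated and none was down-regulated at 4 weeks (median 0.43), and 13 were down-regulated and none was up-regulated at 8 weeks (median -0.38). Their summed intensity was 259650 to 283178 in the DEP and 176326 to 190346 in the control channel at 4 weeks, and 184787 to 190304 against 235264 to 261402 at 8 weeks. *Omp*, the marker of the mature neuron, was at 0.89 and -0.43. The sustentacular cell list, which holds the supporting cells of the same epithelium, had 5 genes up-regulated and 2 down-regulated at 4 weeks, and 1 and 5 at 8 weeks. Those that went against the majority were *Steap4* (-0.77) and *Ces1d* (-0.18) at 4 weeks and *Ermn* (1.70, named after its values were seen) at 8 weeks. The sums of the list were 87057 to 111675 against 62824 to 74002 at 4 weeks and 99199 to 104688 against 140915 to 163710 at 8 weeks. The part of these cells in the values of *Gng8*, *Lhx2* and *Ebf1* was not tested.

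Genes of cell division were taken as a list of 10. At 4 weeks 7 were down-regulated, with *Ccnb1* at -0.95, *Birc5* at -0.88 and *Mki67* at -0.51, and 1 was up-regulated, *Mcm5* at 0.49. At 8 weeks 3 were up-regulated (5 with the processed signals), none was down-regulated and 7 did not pass the test. Which cells of the tissue divided was not measured, and *Neurog1* and *Neurod1* were too dim at 4 weeks to set beside these values.

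The genes whose log2 ratios over the 7 arrays lay closest to those of *Gap43*, among 15487 genes compared, were *Btbd11*, *Tmtc4*, *Vmn2r35*, *Inpp5b* and *Daxx*, at a root mean square difference of 0.046 to 0.064. Closest to *Dpysl5* were *Sema6d*, *Zfp791*, *Mms22l*, *Ephb3* and *Ogfod1*, at 0.056 to 0.095. Among the members themselves the closest pair with a shared rise was *Dpysl5* and *Eya1*, at 0.14, and *Gng8* and *Ebf1* lay 0.21 apart. *Gng8* and *Lhx2* were at 0.18, and *Lhx2* and *Ebf1* at 0.22. These pairs with *Lhx2* leave out replicate 1 of 8 weeks, where *Lhx2* has no ratio and *Gng8* was lowest (-0.57). Their distances are therefore not ranked against that of *Gng8* and *Ebf1*. Of the other genes of the immature neuron, *Gng8* lay 0.45 and *Dpysl5* 1.04 from *Gap43*.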

How the data were processed

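RNA of DEP-exposed (Cy5) and control (Cy3) nasal tissue was measured on 7 arrays. The authors deposited the scanner output of each array (Feature Extraction 10.10.1.1 per the file headers), with intensity values of spots and local backgrounds, not normalized, and processed signals, which the software background-subtracted and dye-normalized. Their GeneSpring normalization was not used here. Median intensities were corrected with normexp (limma 3.58.1 in R 4.3.3, offset 50), fitted without spots marked as background outliers, and normalized by loess within arrays (for channel levels also Aquantile between arrays). Spots that were not uniform were left out. Of 39429 probes, 28335 took their name from RefSeq (GRCm38.p6) by accession, and 25162 were tested because the DEP or the control channel stood well above background on 3 or more arrays. Between 16985 and 26927 probes per channel were well above background, and 0 spots were saturated. Arrays correlated at r = 0.44 to 0.49 within 4 weeks, 0.71 to 0.88 within 8 weeks and 0.09 to 0.29 between them. The number of arrays limits the precision.

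A linear model over all 7 arrays, with 1 mean per exposure time, was tested by limma with Benjamini-Hochberg adjustment over all tested probes. Where a gene had several tested probes, the brightest was taken. On simulated 4-week arrays with 25162 probes and 50 changed per size, the steps recovered 60% of probes changed by 0.5 (log2) and 94% of those changed by 1. There 16 unchanged probes were called. Far fewer probes were changed than were called in the data, so these rates need not hold for the data. Besides the members, the genes named were up to 3 with the largest rise and up to 3 with the largest fall at 4 weeks from each of 14 lists (144 genes), and the 5 genes closest to *Gap43* and to *Dpysl5*. The members and lists were chosen with earlier results of these data known. The labels call the arrays biological replicates. Replicate numbers did not pair the arrays of both times, since the correlations of their deviations were -0.0065, -0.0067 and 0.017. Alternatives in background correction, signal, normalization, filter, test and arrays were tried. The methods' test was taken here as Student's t test of the log2 ratios of each time against no change, and of both times against each other. It was run on the ratios normalized here, so its counts are not those of the study. Some genes of these lists are not reported here.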

Additional observations from a re-analysis of the deposited data

Results flagged for a closer look

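Among the members, the response differed between the exposure times for *Gng8* (8 weeks minus 4 weeks, log2 -0.77), *Ebf1* (-0.61) and *Lhx2* (-0.44), each with an adjusted p of at most 0.05 by limma. One value of a member stood far from the rest of its group, the log2 ratio of *Lhx2* on replicate 4 of 4 weeks, at 0.73 with the nearest other array at 0.43. Without that array the 4-week mean of *Lhx2* was 0.40 and passed the test.

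The same difference passed the test for 39 of the genes named from the lists, and for 30.0% of all tested probes. These genes were picked for large changes at 4 weeks, and the 4-week arrays enter the difference. The pick therefore favours a called difference of the opposite sign, so the count cannot be compared with that share. In neuronal lists the difference was negative for *Map1b* (-1.31), *Atf5* (-0.93), *Ncam1* (-0.71) and *Trib3* (-0.57) of immature neurons, for *Omp* (-1.32), *Gnal* (-1.32) and *Pde1c* (-0.47) of mature neurons, for the vomeronasal *Gnao1* (-0.85), for the regulators *Ebf4* (-1.19) and *Nfic* (-0.44), and for *Calb2* (-0.84), *Eomes* (-0.84) and *Gad1* (-0.36) of the olfactory bulb list. Of the progenitor list, *Hes6* was at -0.60 and *Dll1* at 0.55. Of the horizontal basal cell list, *Krt15* (-0.62) and *Trp63* (-0.32) were lower and *Itga6* (0.50) and *Krt14* (1.27) higher at 8 weeks.

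Of the cell division list, *Birc5* (1.50), *Ccnb1* (1.37) and *Mki67* (1.19) were higher and *Mcm5* (-0.58) lower at 8 weeks. The B cell genes *Jchain* (1.07), *Cd79b* (0.87) and *Ms4a1* (0.72) were higher. Sustentacular genes were lower for *Cbr2* (-1.32), *Sec14l3* (-1.05) and *Cyp1a2* (-0.86) and higher for *Steap4* (0.63) and *Ces1d* (0.25). *Muc5ac* (-1.14) and *Dynlrb2* (-0.40) of the respiratory epithelium were lower, *Fabp7* (0.48) of ensheathing glia higher and *Sox10* (-0.44) lower. *Bglap* (1.11), *Ibsp* (0.75) and *Myh4* (1.09) were higher and *Tnnt3* (-0.39) lower.

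Of 63 genes checked on the 4-week arrays, 8 had 1 array far from the others, where chance gives about 1 in 20 for a gene taken alone. Beside *Lhx2* these were replicate 1 for *Trib3* (-0.078), *Cbr2* (0.28), *Dynlrb2* (0.13), *Fabp7* (-0.28), *Myh4* (-0.11) and *Vmn2r35* (0.21), and replicate 2 for *Mylpf* (-1.42). Most lay on replicate 1, so the genes need not be independent of each other. *Vmn2r35* was taken for its closeness to *Gap43*, whose own replicate 1 was its highest at 4 weeks.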

How the results depend on the processing

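Of 370 member values recomputed under the alternatives, 351 kept their sign and 329 also their side of the threshold. *Neurod1* was not tested and has no alternative, and *Neurog1* has values for 8 weeks only. The calls of *Dpysl5* held under every alternative, and *Eya1* lost its call only at 8 weeks with the methods' test after adjustment (adjusted p = 0.060 by the methods' test). The calls of *Gng8*, *Lhx2* and *Ebf1* at 4 weeks were lost only at the methods' thresholds, which ask for at least 2-fold and an unadjusted p of at most 0.01. The means of all 3 were under 2-fold, and for *Lhx2* the unadjusted p also missed its threshold (0.0101).

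At 4 weeks the 9322 called probes became 5817 with the background fitted on all spots, 264 at the methods' thresholds and 5431 with the methods' test after adjustment (6685 to 9366 with 1 array left out). At 8 weeks 9096 became 555 and 438 with these 2 forms of the methods' test (5135 to 10096 with 1 array left out, the lowest without replicate 2 of 8 weeks). Between the times 7557 became 661 at the methods' thresholds (4523 to 8127 with 1 array left out, the lowest without replicate 2 of 8 weeks). With the replicate number as a block, which does not pair the arrays, it was 3714. The processed signals split the called probes into 7638 higher and 3553 lower at 4 weeks, and into 3170 higher and 6281 lower between the times (3509 and 4048 with loess), where median centring gave 2014 and 5212.

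The members called at 4 weeks were 2 at the methods' thresholds in place of 5. At 8 weeks they were 4 with median centring and 4 among probes measured in both channels of all arrays (*Gng8* and *Ebf1* lower), and 1 with the methods' test after adjustment, in place of 2. Between the times they were 0 at the methods' thresholds and 2 with the methods' test after adjustment, in place of 3, and 2 to 3 with 1 array left out.

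Signs turned only for values that had not passed the test. With median centring *Gap43* was at -0.012 (4 weeks), -0.17 (8 weeks) and -0.16 (difference), *Lhx2* at -0.31 (8 weeks), and the differences of *Dpysl5* and *Eya1* at -0.11 and -0.087. With the processed signals *Emx2* was at 0.052 (4 weeks) and -0.46 (difference), and the differences of *Gap43* and *Dpysl5* at -0.010 and -0.047. *Emx2* at 8 weeks was 0.0010 with the background fitted on all spots. With the replicate block the difference of *Gap43* was -0.0016. With 1 array left out, *Emx2* ran from -0.13 to 0.022 at 4 weeks and from -0.043 to 0.035 at 8 weeks, and *Lhx2* from -0.053 to 0.14 at 8 weeks. The differences then ran from -0.051 to 0.14 for *Gap43* and from -0.028 to 0.12 for *Emx2*. The causes were not tested. Signal over background limits *Neurog1*, *Neurod1* and *Emx2*.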
